A study of Mus musculus with 4 samples.

Results

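Tgfbr2 and Tgfbr3 encode a pair of cell-surface receptors for transforming growth factor beta (TGF-beta), and all intervals listed at their loci in 4 chromatin immunoprecipitation sequencing (ChIP-seq) libraries of mouse uterus are described here. The members were every listed interval that touched chromosome 9, 115980000 to 116100000 (Tgfbr2), or chromosome 5, 107510000 to 107735000 (Tgfbr3), with positions as in the deposited lists, which the labels tie to no build and which were read here as mm9. There were 15 such intervals among the 35977 of the series, 4 at Tgfbr2 and 11 at Tgfbr3. Both genes were selected on POL2-covered length by stage and on FOXA2 intervals, as earlier results of these lists had shown them, so these values are described and not tested.

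The libraries came from whole uterus of female mice, and the sources used here give no strain or genotype. The adult group was the uterus in pseudopregnancy, the hormonal state after a sterile mating, and its label names days 2.5 and 3.5 together. The younger group was the uterus at postnatal day 12 (PD12), when glands form. At each stage 1 library was made with a goat antibody to FOXA2, the forkhead factor of uterine glands, and 1 with a rabbit antibody to RNA polymerase II that carries phosphate on serine 2 of the repeats in its tail (POL2), the form that travels through gene bodies during elongation. Each group thus had 1 library, and no difference between the stages has a replicate check or a p-value. The lists hold positions alone, so that an interval has a place and a width and no strength, and the depth of each library is unknown.

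In TGF-beta signalling, the ligand binds the type II receptor TGFBR2, a serine/threonine kinase that is active by itself. TGFBR2 then phosphorylates the type I receptor TGFBR1, which in turn phosphorylates receptor-regulated SMAD proteins that enter the nucleus with SMAD4 and act on target genes. TGFBR3, also called betaglycan, is a co-receptor with a short cytoplasmic tail and no kinase of its own, which presents TGF-beta to TGFBR2 and also binds inhibin. In the uterus TGF-beta signalling is known from stroma and smooth muscle as well as from epithelium, whereas FOXA2 is a factor of the glands. In whole tissue, more polymerase per cell and more cells of a type with polymerase on the gene cannot be told apart, and a FOXA2 interval and a POL2 domain at the same place need not come from the same cells.

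The promoter sequence of Tgfbr2 is shown because the adult POL2 domains, unlike the PD12 ones, reached the side of the locus with the higher positions. By its strand in RefSeq the gene starts on that side, but its start was not placed in the build of the lists. The sequence spans 250 bases before and 50 bases after the gene start, from RefSeq on build GRCm38.p6, chr9:116175314-116175613, minus strand. These positions are of another build than those of the lists and cannot be set against them. Capitals mark the letters CCAAT on either strand.
Tgfbr2 promoter: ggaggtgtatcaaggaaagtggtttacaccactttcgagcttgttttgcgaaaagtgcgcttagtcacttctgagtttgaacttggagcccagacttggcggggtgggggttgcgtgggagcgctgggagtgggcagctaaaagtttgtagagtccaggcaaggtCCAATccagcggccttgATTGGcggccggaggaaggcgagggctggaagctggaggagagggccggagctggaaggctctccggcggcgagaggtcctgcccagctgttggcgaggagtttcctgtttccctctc

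The sequence has 59% G and C. The CCAAT letters occur at 2 places, which begin 85 and 68 bases before the gene start, and 37.4% of the 32851 RefSeq promoters of the same length hold them on at least 1 strand. The forkhead letters TGTTTAC and TGTTTGC, searched on both strands, are not in this window, and 3.65% and 5.07% of those promoters hold them. The TATA-box letters TATAAA and the GC-box letters GGGCGG are not in it either, against 13.6% and 35.7% of promoters.

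POL2 covered most of the Tgfbr2 region in the adult uterus and a short part of it at PD12. The adult list had 2 domains there, of 58.6 kb at 115992400 to 116050999 and of 34.2 kb at 116051800 to 116085999. The PD12 list had 2 domains, of 6.4 kb at 115992600 to 115998999 and of 3.4 kb at 116003000 to 116006399. The covered length was therefore 92.8 kb in the adult and 9.8 kb at PD12, a ratio of 9.47 between 1 library and 1 library. Of the 120-kb region, 77.3% lay in a POL2 domain in the adult and 8.17% at PD12.

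The adult domains of Tgfbr2 were separated by 0.8 kb, the smallest gap between neighbours anywhere in either POL2 list. They form a stretch of 93.6 kb, a term used here for domains of both stages joined across gaps of up to 5 kb. Both ends of this stretch are ends of adult domains, so that adult POL2 fills it nearly by construction. RefSeq gives the gene a length of 87.7 kb on GRCm38, so that the stretch was 1.07 times as long as the gene. Both PD12 domains began close to the low end of the stretch, at 0.2 and 10.6 kb from it, and the last PD12 base lay at 14.0 kb, or 15.0% of its length. Of the 79.6 kb from there to the high end, 78.8 kb lay in adult POL2 domains and none in a PD12 one. Tgfbr2 is on the minus strand in RefSeq, so the low end of its stretch is the side of the gene's 3′ end.

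**Figure D1:**
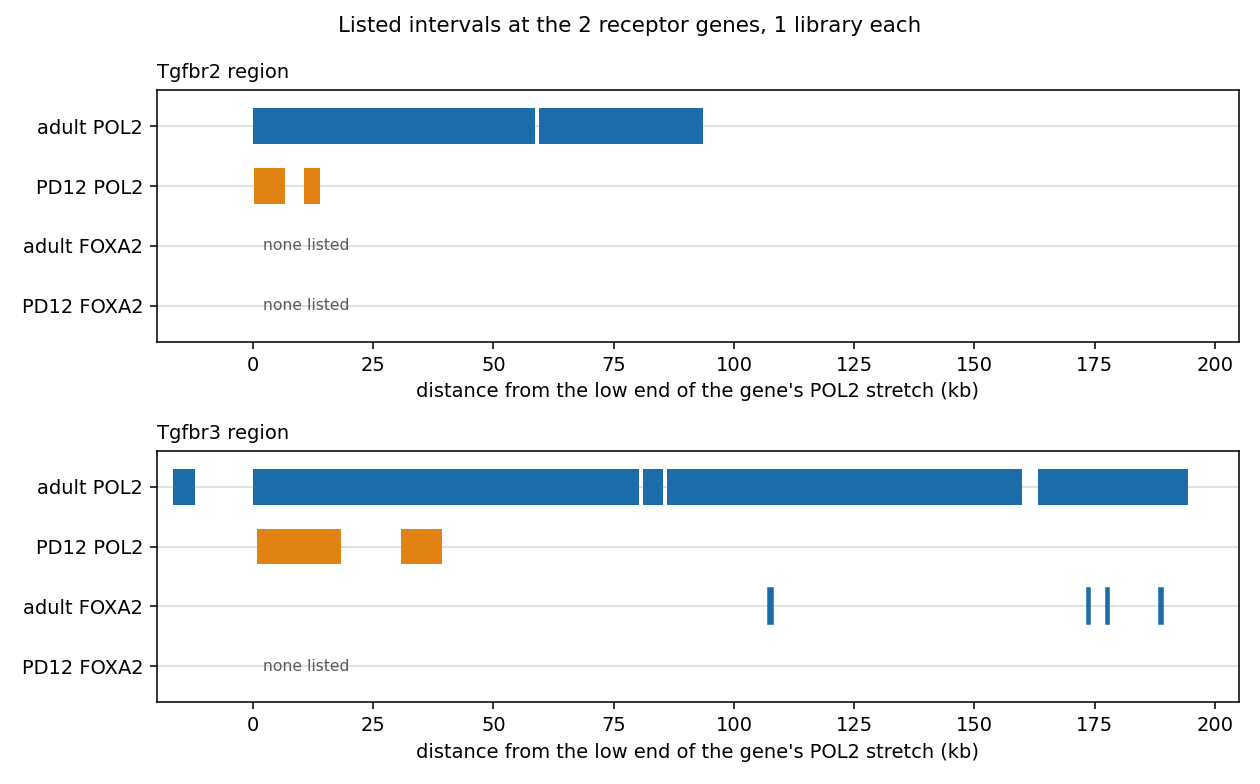
Intervals listed at Tgfbr2 (top) and Tgfbr3 (bottom), drawn to scale as distance in kb from the low end of each gene's POL2 stretch, with adult in blue and PD12 in orange and 1 library a track. The ends of both stretches are ends of adult POL2 domains, so adult POL2 fills them nearly by construction. PD12 POL2 ends at 14.0 kb and 39.4 kb, and the 4 FOXA2 intervals are all adult and at Tgfbr3. FOXA2 intervals are outlined and so look slightly wider than they are.

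Tgfbr3 showed the same arrangement over a longer stretch, with FOXA2 in addition. The adult list had 4 POL2 domains in the gene's stretch, of 80.2 kb at 107524400 to 107604599, of 4.2 kb at 107605400 to 107609599, of 73.8 kb at 107610400 to 107684199 and of 31.2 kb at 107687600 to 107718799. The gaps between them were 0.8, 0.8 and 3.4 kb. The PD12 list had 2 domains, of 17.6 kb at 107525200 to 107542799 and of 8.6 kb at 107555200 to 107563799, with 12.4 kb between them. POL2 thus covered 189.4 kb of the stretch in the adult and 26.2 kb at PD12, a ratio of 7.23. Over the 225-kb region the share was 85.2% in the adult, with the domain at the lower edge included, and 11.6% at PD12.

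The Tgfbr3 stretch, whose ends were again ends of adult domains, was 194.4 kb long, 1.06 times the RefSeq length of the gene, 183.1 kb. Its PD12 domains began 0.8 and 30.8 kb from the low end and the last PD12 base lay at 39.4 kb, or 20.3% of the length. Of the 155.0 kb above it, 150.0 kb lay in adult POL2 domains and none in a PD12 one. The tables used here give no strand for Tgfbr3. It is known to lie on the minus strand as well, so that the low end is again the side of the 3′ end.

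The fifth adult POL2 interval of the Tgfbr3 region, 4.6 kb at 107507800 to 107512399, crossed the lower edge of the region and lay 12.0 kb below the stretch. It had no PD12 counterpart. In the RefSeq gene order the coding genes next to Tgfbr3 are Cdc7 on the lower side and Brdt on the upper side. Which gene this domain belongs to is not stated, because an annotation of the build of the lists was not used here.

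**Figure D2:**
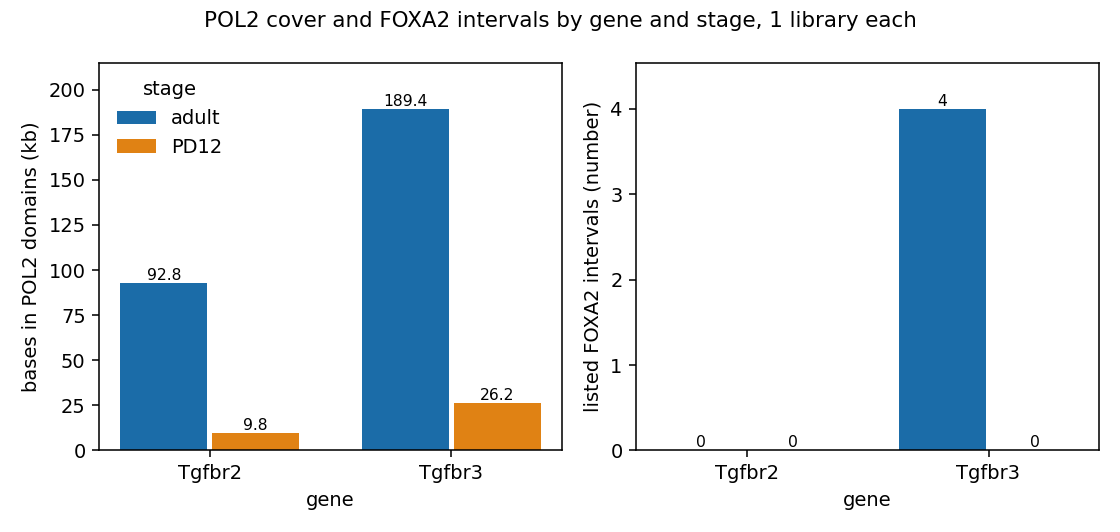
Left, bases in POL2 domains in kb within the stretch of each gene; right, number of FOXA2 intervals listed in each region, with adult in blue to the left of PD12 in orange and 1 library a bar, so without error bars. Adult POL2 cover was 92.8 kb at Tgfbr2 and 189.4 kb at Tgfbr3, against 9.8 and 26.2 kb at PD12, and FOXA2 intervals were listed at Tgfbr3 in the adult alone.

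Between the genes, adult POL2 cover was 2.04 times as long at Tgfbr3 as at Tgfbr2, close to the ratio of their RefSeq lengths, 2.09. At PD12 the ratio was 2.67. All 9.8 kb of PD12 cover at Tgfbr2 and all 26.2 kb at Tgfbr3 also lay in adult domains, where 72.0% of the bases of the whole PD12 POL2 list did. Adult POL2 covered 99.1% of the Tgfbr2 stretch and 97.4% of the Tgfbr3 stretch, so PD12 cover inside them could hardly lie elsewhere. The PD12 cover amounted to 10.6% of the adult cover at Tgfbr2 and 13.8% at Tgfbr3.

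Counted as intervals, 4 of the 4 PD12 POL2 domains at the 2 genes overlapped an adult domain by at least 1 bp, and 79.9% of all PD12 POL2 domains did. That overlap was likewise nearly fixed by the adult cover of the 2 stretches. Of the 7 adult domains, 2 overlapped a PD12 domain, the lowest domain of each stretch, and 5 did not. Over the whole adult list, 45.6% of domains overlapped no PD12 domain. Among the adult-only ones were the domains of 34.2 kb at Tgfbr2 and of 73.8 and 31.2 kb at Tgfbr3. Because a wide domain counts as shared when any base of it is shared, the count hides most of the difference in covered length. It also depends on where the cover of a gene was split into domains. Merged across gaps of up to 5 kb, the adult domains numbered 1 at Tgfbr2 and 2 at Tgfbr3. The 5 adult-only domains include the 4.6-kb one, which lies outside the Tgfbr3 stretch.

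Of the 7 adult domains of the pair, 5 were among the widest of the list and 2 were narrower than its median of 4.8 kb. Of the 14818 adult POL2 domains, the 80.2-kb domain of Tgfbr3 ranked 9th in width, its 73.8-kb domain 12th and its 31.2-kb domain 105th. At Tgfbr2 the 58.6-kb domain ranked 21st and the 34.2-kb domain 79th. The 4.6-kb and 4.2-kb domains of the Tgfbr3 region had 51.2% and 55.7% of the list above them. The PD12 domains did not stand out in this way, with 5.03% of the 9972 PD12 domains wider than the 17.6-kb one at Tgfbr3, 25.5% wider than the 8.6-kb one, and 40.3% and 72.8% wider than the 6.4-kb and 3.4-kb ones at Tgfbr2.

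Against all 11353 stretches, the adult excess in covered length was 83.0 kb at Tgfbr2, rank 12, and 163.2 kb at Tgfbr3, rank 2. By length alone the 2 stretches ranked 49 and 5, and a longer stretch has room for a larger excess. Adult cover was at least 2 times PD12 cover at both genes and at 45.9% of all stretches. Of the 172 stretches with 50 kb or more of adult cover, 26.2% passed that fold. Their PD12 cover had a median of 80.8% of the adult cover (interquartile range 47.8 to 97.8), and 16 of them had a lower share than Tgfbr2 and 21 a lower share than Tgfbr3. Both genes were chosen for this contrast, so their place in it is a description.

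**Figure D3:**
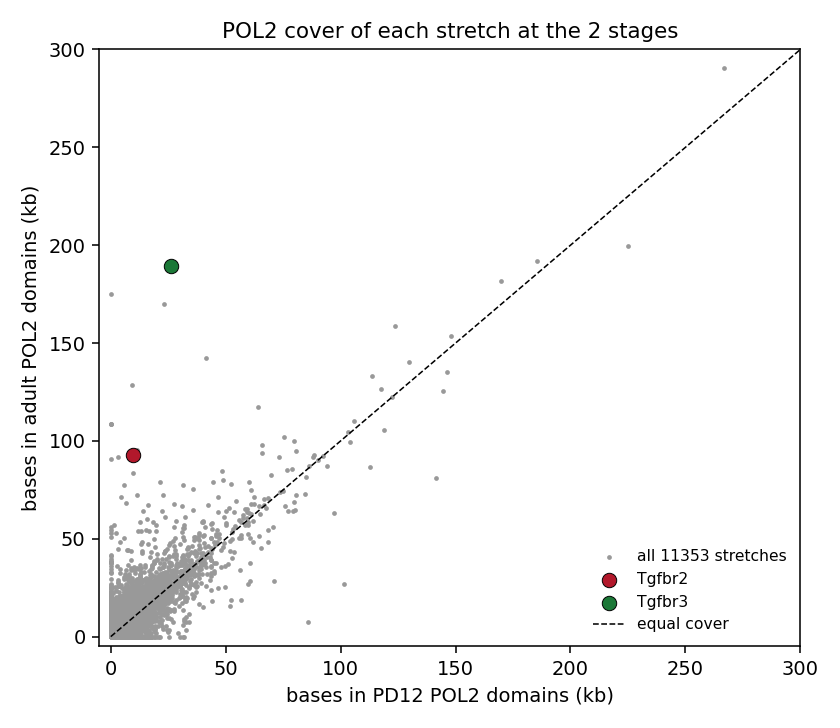
Bases in adult POL2 domains (vertical axis, kb) against bases in PD12 POL2 domains (horizontal axis, kb) for all 11353 stretches, 1 grey point each, with Tgfbr2 in red, Tgfbr3 in green and the dashed line at equal cover. Tgfbr2 (92.8 kb adult, 9.8 kb PD12) and Tgfbr3 (189.4 kb adult, 26.2 kb PD12) both lie far above the line.

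The place of the PD12 cover was compared with that in other long stretches, with limits set after the values of the pair were seen. Among the 172 stretches, 36 had some PD12 cover and at most 50% of the adult length. In 9 of these 36 (25%) all PD12 cover lay within 25% of the length from 1 end, and Tgfbr2 and Tgfbr3 were 2 of the 9. The low end was the one in 6 of the 9. Strand was not at hand for these stretches in the build of the lists, so whether their ends are 3′ ends is not stated.

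FOXA2 differed between the genes. No FOXA2 interval of either stage was listed in the Tgfbr2 region, and 4 adult intervals and no PD12 one were listed in the Tgfbr3 region. Adult FOXA2 was at 107631558 to 107632434 (877 bp), 107697838 to 107698371 (534 bp), 107701760 to 107702376 (617 bp) and 107712672 to 107713563 (892 bp). All 4 were adult-only, as were 94.4% of the 10373 adult FOXA2 intervals, and PD12 had 814 FOXA2 intervals in all. When only the 814 widest adult intervals were kept, as many as at PD12, Tgfbr3 had 0 adult FOXA2 intervals. That follows from their widths, which ranked 1781, 1907, 6614 and 8290 in the adult list, and a width is not a strength. With the wider 50% of each list, Tgfbr3 had 2 adult intervals and Tgfbr2 had 0, and both genes had 0 at PD12. Whether list length accounts for the difference was not tested. The absence of PD12 FOXA2 at Tgfbr3 is what most adult FOXA2 regions showed.

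The 4 FOXA2 intervals of Tgfbr3 were of ordinary width. Their median was 747 bp, where the adult list had a median of 685 bp and an interquartile range of 560 to 821 bp. The 892-bp and 877-bp intervals were wider than most, with 17.2% and 18.4% of the list above them, and the 617-bp and 534-bp intervals were narrower than most, with 63.8% and 79.9% above them. Together they covered 2.92 kb.

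Near the high end of the Tgfbr3 stretch lay 3 of the 4. The centres of these 3 were 20.7, 16.7 and 5.68 kb from the high end, all in the 31.2-kb adult POL2 domain, and they spanned 15.7 kb with gaps of 3.39 and 10.3 kb. The part of the stretch from the first of them to the high end is 10.8% of its length. In the whole adult list, 4.61% of FOXA2 intervals, these 3 among them, belonged to a group of 3 that fitted in a span as short as this. The limit was taken from these 3 intervals themselves, so that share is a description and no measure of how unusual they are. The other interval lay alone 65.4 kb below them, inside the 73.8-kb domain, 21.2 kb from that domain's low end and 51.8 kb from its high end.

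All 4 adult FOXA2 intervals of Tgfbr3 lay in an adult POL2 domain, as 19.4% of the adult list did, and none in a PD12 domain, where 11.4% of the adult list lay. With 97.4% of the Tgfbr3 stretch covered by adult POL2 and 13.5% by PD12 POL2, an interval anywhere in the stretch would mostly be counted in this way. The lowest FOXA2 interval was 67.8 kb above the last PD12 POL2 base. FOXA2 intervals thus fell in the part of the gene where POL2 was listed in the adult alone, and the domain that both stages shared, at the low end, held none.

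The number of FOXA2 intervals was set against the length of adult POL2 cover. Tgfbr3 had 2.11 intervals per 100 kb of adult cover, and the adult lists as a whole also had 2.11 (2012 intervals in 95.2 Mb). At that density 92.8 kb would hold 1.96 intervals, and Tgfbr2 had 0. Among the 172 long stretches the density was lower, 1.30 per 100 kb, which gives 1.20 for the cover of Tgfbr2. Of these stretches, 61.6% held at least 1 adult FOXA2 interval, 66 held none, and 4.65% held at least 4. The difference between 4 intervals and 0 has no replicate and was not tested.

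**Figure D4:**
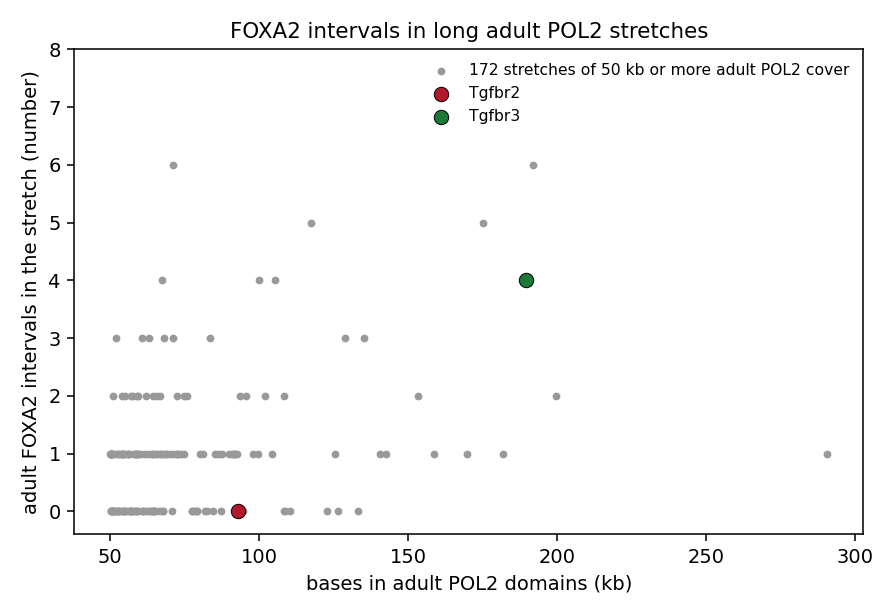
Number of adult FOXA2 intervals (vertical axis) against bases in adult POL2 domains in kb (horizontal axis) for the 172 stretches with 50 kb or more of adult cover, 1 grey point each, with Tgfbr2 in red and Tgfbr3 in green. Tgfbr2 is one of the 66 stretches at 0 and Tgfbr3, at 4, is one of the 8 with at least 4.

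FOXA2 was also counted in windows of fixed length that tile the chromosomes, without the use of POL2. Of windows as long as the Tgfbr2 region, 29.9% held at least 1 adult FOXA2 interval and 3.52% at least 1 PD12 one. Of windows as long as the Tgfbr3 region, 43.7% held an adult and 6.38% a PD12 interval, and 5.62% held at least 4 adult intervals. Having no PD12 FOXA2 was thus the usual state of windows of either length, and so was having no adult FOXA2.

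Just outside the regions, the FOXA2 interval nearest to the Tgfbr2 stretch was an adult one of 672 bp at 116140939 to 116141610, 54.9 kb above the high end. It lay in no POL2 domain of either stage and had no PD12 counterpart. Of all adult FOXA2 intervals, 19.4% overlapped adult POL2, 11.4% overlapped PD12 POL2 and 94.4% had no PD12 counterpart. On the lower side the nearest adult FOXA2 interval was 309.9 kb away. At PD12 the nearest FOXA2 intervals were 4319.9 kb above and 772.1 kb below. For Tgfbr3 the nearest adult FOXA2 intervals outside the stretch were 813 bp wide at 107498913 to 107499725, 24.7 kb below, and 678 bp wide at 107836720 to 107837397, 117.9 kb above, and neither lay in a POL2 domain. The nearest PD12 FOXA2 intervals were 1410.2 kb below and 147.8 kb above, and the upper one overlapped an adult interval.

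No other POL2 domain of either stage lay closer than 388.2 kb to the Tgfbr2 stretch. The nearest domains below were 771.2 kb away in the adult and 771.4 kb at PD12, and those above were 388.6 kb away in the adult and 388.2 kb at PD12. The lower pair, 115217400 to 115221199 in the adult and 115218000 to 115220999 at PD12, had nearly the same ends. The upper pair, 116474600 to 116475399 in the adult and 116474200 to 116481999 at PD12, was 0.8 kb wide in the adult and 7.8 kb at PD12, so that the wider domain there was the PD12 one. Around Tgfbr3 the nearest domain above began 107.8 kb away in the adult and 123.6 kb away at PD12, and the nearest below lay 12.0 kb away in the adult and 411.2 kb away at PD12.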

How the data were processed

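The submitters' processing notes name the aligner BWA without a version. The sources used here do not give the peak caller, its threshold, how the input was used or the build. Per the file headers, the deposited lists hold the chromosome, start and end of each called interval, 1 list for each of 4 libraries. The deposited lists have no score column and no count column, so depth and the precision it gives are unknown. All POL2 starts lie on a 200-bp grid with gaps of at least 800 bp, and FOXA2 starts do not, so widths were compared within an antibody.

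Positions were counted as inclusive. Overlap means at least 1 bp. Covered bases, joined stretches, list shares and tiling windows were computed with Python 3.11.15, numpy 2.4.6 and pandas 2.3.3. The functions for cover, joining and tiling were tested on simulated lists with known answers. Those for overlap were tested on PD12 FOXA2 intervals with planted copies. The code that summed cover over all stretches was not part of those tests. No test between groups was possible with 1 library a group. All intervals of both regions are named. The regions, lists and limits were chosen with earlier results of these data known. Of the 2 genes, both matched the RefSeq gene table (GRCm38.p6) and 1 its promoter table. That table served for names, lengths and gene order.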

Additional observations from a re-analysis of the deposited data

How the results depend on the processing

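Of 46 alternatives over 18 values, 31 stayed within the 95% binomial interval of the reported share, taken over 200-bp bins as a yardstick, or within 1.5 times the reported count, and 15 did not. Neighbouring bins lie in the same domains and are not independent, so that interval measures no spread of the data. Many of the 31 were FOXA2 values of 0 that these alternatives could not change, so the tally is no measure of stability. With each region drawn in by 10 kb at both ends, adult POL2 cover was 92.8% at Tgfbr2 and 92.4% at Tgfbr3, because the uncovered flanks are left out. With domains merged across gaps of up to 5 kb, cover was 87.5% at Tgfbr3 in the adult and 11.5% at Tgfbr2 at PD12, and domains numbered 1 in the adult and 1 at PD12 at Tgfbr2 and 2 in the adult at Tgfbr3. With domains of 5 kb or more only, cover was 82.3% at Tgfbr3 in the adult and 5.33% at Tgfbr2 at PD12. Adult POL2 domains shared with PD12 numbered 0 at both genes when each domain of a pair had to be covered by at least 50%, and 0 when centres had to lie within 500 bp. Adult FOXA2 intervals at Tgfbr3 numbered 2 when only the wider 50% of each list was kept, and 0 when only the 814 widest of the adult list were. Adult cover was above PD12 cover at both genes under every alternative run for it. Both genes were chosen for this difference, and it was too large for these alternatives to reverse, so this adds no support to it. No paired analysis was possible because there was 1 library a group.

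The forkhead motif in FOXA2 intervals and counts over other TGF-beta pathway genes were not run, since a genome and annotation of the build of the lists were not used here. Unknown depth limits each statement that an interval was not listed.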
